A study of Caenorhabditis elegans with 2 samples.

Results

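Axon guidance genes of Caenorhabditis elegans were examined for sites occupied by DSC-1, a paired-like homeodomain protein, in chromatin immunoprecipitation sequencing (ChIP-seq) data. The 10 genes were chosen as members of the netrin, Slit and axon outgrowth pathways, out of 19973 protein-coding genes, and results of these data were already known when they were chosen. Each was described by every peak summit inside the gene or in the 5 kb upstream of its outermost annotated start. The samples were whole hermaphrodites at the first larval stage (L1), taken 6 hours after synchronization by bleaching and starvation. Strain OP522 carries the mutation unc-119(tm4063) on chromosome III and the transgene wgIs522, from which DSC-1 is made with a GFP-FLAG tag at its carboxy terminus. Chromatin was precipitated with an antibody against GFP. The labels give 2 biological replicates of a single condition. Nothing could be compared between conditions, and no untagged or input sample was analysed here. Whole larvae hold all cell types, so a weak peak in many cells and a strong peak in few cells cannot be told apart.

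Axons are steered by secreted cues and by the receptors that read them. In C. elegans the netrin UNC-6 attracts or repels axons along the dorsoventral axis through the receptors UNC-40 (the DCC homologue) and UNC-5, and the Slit protein SLT-1 repels them through the receptor SAX-3 (the Robo homologue). UNC-129, a ligand of the TGF-beta family, acts in the same dorsal guidance. Inside the growth cone, UNC-34 (the Enabled homologue) and UNC-73 (the Trio homologue, which activates Rac-type GTPases) act on the actin cytoskeleton, while UNC-76 (the FEZ1 homologue) and UNC-16 (the JIP3 homologue) act in axon bundling and in kinesin-driven transport.

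The authors deposited peak lists of 26482 entries from replicate 1, 30000 from replicate 2 and 30000 from both pooled, all of which include background. Of the pooled peaks, 6283 passed the authors' threshold on the irreproducible discovery rate (IDR), a measure of how well peak ranks repeat between replicates. They are the 6283 strongest of the pooled list by signal, so pooled ranks from 6284 lie outside the IDR list. Rank 1 is the strongest peak of a list. The signal is the authors' own value for each peak. Its scale is not stated, and the number of reads is unknown, so signal is read here only within a list.

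Of the 10 genes, 6 had an IDR summit in the gene or within 5 kb upstream: the receptor genes unc-5, unc-40 and sax-3 and the intracellular genes unc-73, unc-76 and unc-16. The 3 ligand genes unc-6, slt-1 and unc-129 had none, nor had unc-34. The windows of the 3 ligand genes were shorter (7572 to 13997 bp) than those of the 3 receptor genes (16667 to 37675 bp). The window of unc-76 was also short, at 13393 bp, and held 3 IDR summits. Over all protein-coding genes the share with an IDR summit in the same kind of window was 32.9%. The member windows were longer, with a median of 16430 bp against 7027 bp for all genes. Among 7666 genes with windows between the shortest and the longest member window, 7572 to 37675 bp, the share was 42.8%. With 10 genes, no test of the difference was made. The 6 genes held 16 IDR summits. Over the windows of all 10 genes this was 0.826 per 10 kb, against 0.629 over all protein-coding genes. Over the 7666 genes with windows of 7572 to 37675 bp it was 0.676. The windows of these 7666 genes summed to 84007 kb, against 193.6 kb for the 10 members. Within that range the genes were not matched to the members in length. The gene unc-73 contributed 7 of the 16 summits, and without it the density was 0.576 per 10 kb.

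**Figure D1:**
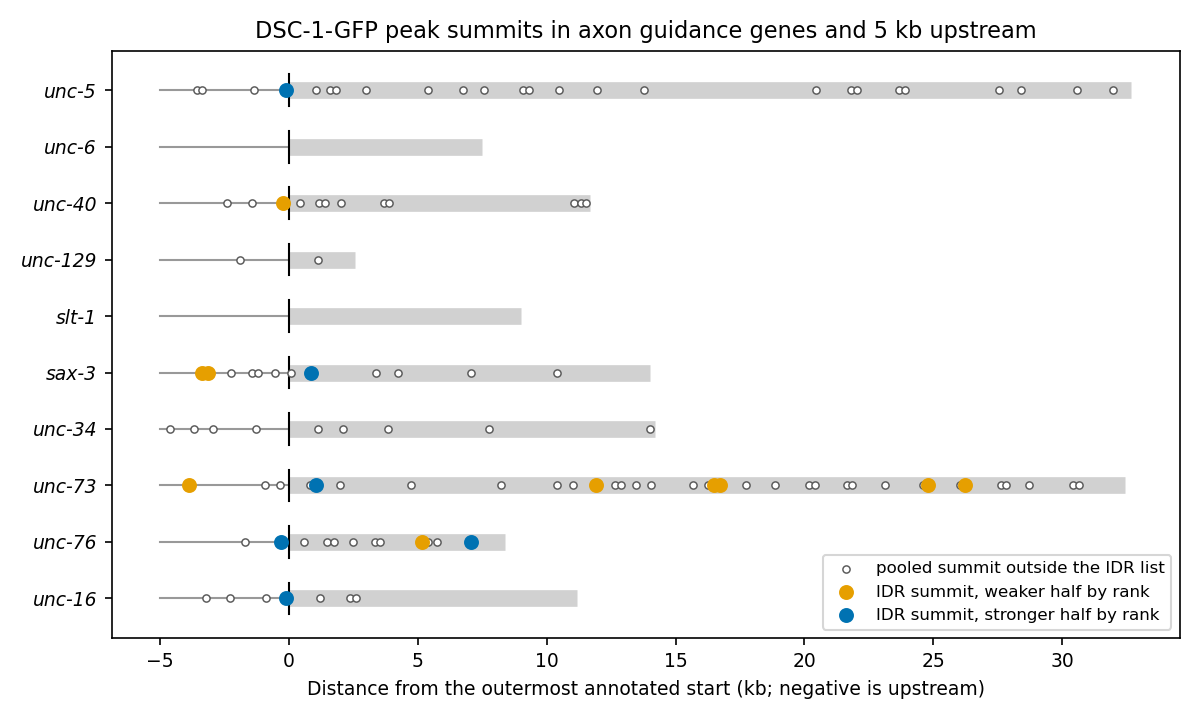
Position of every pooled peak summit relative to the outermost annotated start of each gene (x axis, kb, negative is upstream; grey bars are genes and thin lines the 5 kb upstream). Filled points are the 16 IDR summits, blue for ranks up to 3141 and orange for weaker ones, and open points are pooled summits outside the IDR list. The genes unc-5, unc-40, unc-76 and unc-16 have an IDR summit just upstream of the start, and unc-6 and slt-1 have no pooled summit.

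The peaks before the IDR threshold were also unevenly spread. The member windows held 114 pooled summits, or 5.89 per 10 kb. The windows of all protein-coding genes held 2.88 per 10 kb, and those of 7572 to 37675 bp held 3.21. The replicates separately gave the same direction, with 4.91 per 10 kb in replicate 1 against 2.57 over all genes and 6.09 in replicate 2 against 2.91. By gene the pooled density ran from 0 at unc-6 and slt-1, through 2.64 at unc-129, to 8.96 at unc-76 and 9.35 at unc-73. These lists contain background, so a summit in them is not by itself a site of DSC-1.

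**Figure D2:**
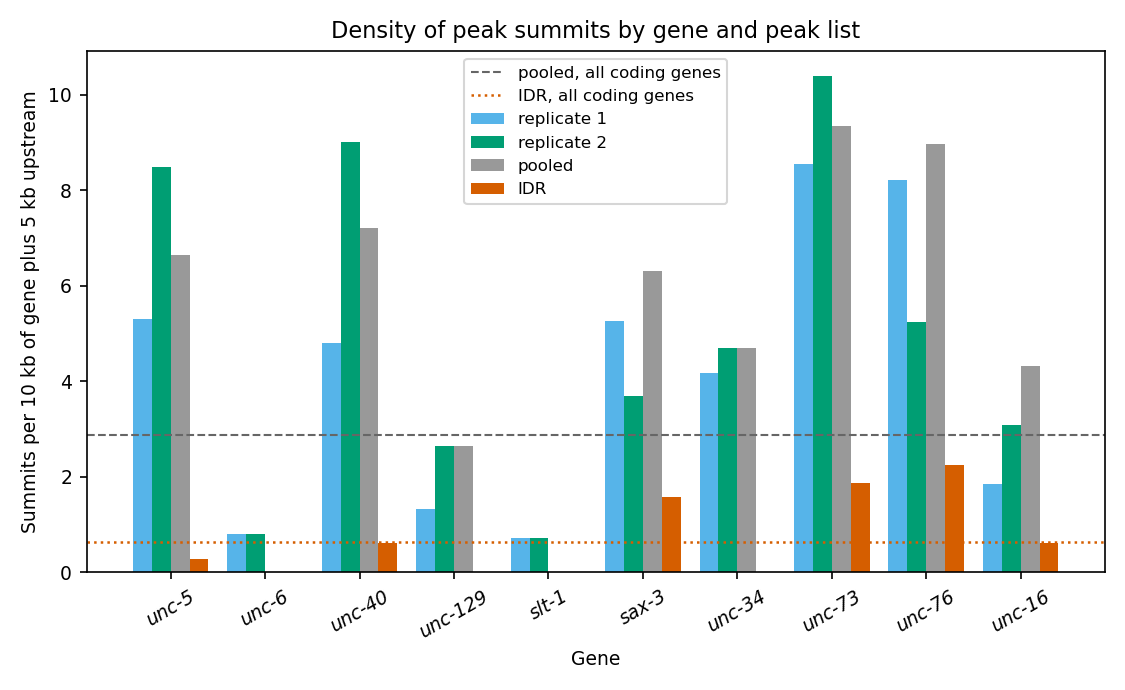
Summits per 10 kb of gene plus 5 kb upstream (y axis) for each gene (x axis), with a bar for each peak list and, as lines, the density over all protein-coding genes in the pooled list (2.88) and in the IDR list (0.629). The bars of unc-6 and slt-1 are below 1 in both replicate lists and are 0 in the pooled and IDR lists, whereas unc-5, unc-40, sax-3, unc-34, unc-73 and unc-76 are above the pooled line in both replicates.

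The netrin gene unc-6 (WBGene00006746, chromosome X, 6889674 to 6897147, plus strand) had no pooled summit in its 12474 bp window. Replicate 1 had 1 weak summit, in an intron 4025 bp downstream of the start at rank 25738, and replicate 2 had 1 in an intron at 4622 bp, at rank 19902. The nearest IDR summit was 13541 bp downstream of the start, past the end of the gene and nearest to the start of sid-5. The Slit gene slt-1 (WBGene00004854, X, 14674328 to 14683324, plus strand) likewise had no pooled summit in 13997 bp. Its single summits in the replicates were in different places, at rank 23384 in a coding exon for replicate 1 and at rank 23278 upstream of the gene for replicate 2. Of the 472 protein-coding genes with a window between those of unc-6 and slt-1 in length, 24.8% had no pooled summit.

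The remaining ligand gene, unc-129 (WBGene00006852, IV, 9002839 to 9005410, minus strand), had a peak upstream in both replicates that is in neither the pooled nor the IDR list. In replicate 1 the peak had its summit 2851 bp upstream of the start, with signal 43.7 and rank 5092. In replicate 2 it was 2745 bp upstream, with signal 93.6 and rank 3200. Both ranks are within the strongest 6283 of the replicate, the number of IDR peaks. Of the 5243 peaks among the strongest 6283 of replicate 1 that overlapped one among those of replicate 2, 20 had no overlapping pooled peak, or 0.381%, and the peak at unc-129 was the only one of these 20 in a member window. The pooled list had 2 weak summits in the window, the stronger in a coding exon at rank 27730. The sequence around the replicate 2 summit is shown because the IDR list leaves this site out (ce11, chrIV:9008105-9008205, minus strand, 5′ to 3′ in the sense of the gene). The replicate 1 summit, at 9008261, lies outside this stretch. Capitals mark TAAT or its complement ATTA, the core that homeodomain proteins commonly recognise, and GAGAG or its complement CTCTC.
unc-129 upstream: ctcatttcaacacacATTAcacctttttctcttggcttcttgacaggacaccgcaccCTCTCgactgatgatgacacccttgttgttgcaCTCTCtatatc

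Among the receptor genes, unc-5 (WBGene00006745, IV, 5495664 to 5528338, minus strand) had a single IDR summit in a window of 37675 bp. It lay 122 bp upstream of the start (peak 5528287 to 5528612), at rank 641 with signal 451. The same peak had signal 186 and rank 665 in replicate 1 and signal 262 and rank 652 in replicate 2, with summits 12 bp and 1 bp away. Its ranks in the 3 lists were thus all between 641 and 665. The remaining 24 pooled summits of the gene were outside the IDR list, the strongest of them in an intron at rank 7717.

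At sax-3 (WBGene00004729, X, 3451908 to 3465927, minus strand) the pattern was different, with 3 IDR summits and none in the promoter window, which spans 1000 bp before the start and 200 bp after it. The strongest was 842 bp downstream of the start in the first intron (peak 3464982 to 3465219), at rank 2159. In replicate 1 it ranked 1629 and in replicate 2 it ranked 2645. The nearest gene start to it was that of ZK377.15, at 800 bp. The other two were upstream, 3158 bp and 3358 bp from the start, at ranks 4436 and 5535. Their peaks overlap and their summits are 200 bp apart. The strongest replicate peak overlapping each was the same for both, at rank 4257 in replicate 1 and at rank 3858 in replicate 2. These upstream summits may therefore be counted as 1 region. The sequences at the unc-5 promoter summit (chrIV:5528410-5528510) and the sax-3 intron summit (chrX:3465035-3465135), both ce11 and minus strand, carry the strongest peaks of the guidance receptors, with capitals as above.
unc-5 promoter: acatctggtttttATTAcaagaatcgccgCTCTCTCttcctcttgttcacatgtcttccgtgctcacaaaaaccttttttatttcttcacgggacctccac
sax-3 intron: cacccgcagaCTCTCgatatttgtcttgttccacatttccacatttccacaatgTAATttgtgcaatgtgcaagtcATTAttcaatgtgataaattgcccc

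The remaining receptor gene, unc-40 (WBGene00006776, chromosome I, 5679837 to 5691503, minus strand), had 1 IDR summit, 244 bp upstream of the start (peak 5691549 to 5691944). It was weaker than that of unc-5, at rank 4838 with signal 106. Replicate 1 gave rank 5437 with its summit at the same base, and replicate 2 gave rank 4729 with its summit 9 bp away. The summit also lies 517 bp upstream of npp-7, a nuclear pore gene transcribed in the opposite direction, so the peak cannot be assigned to unc-40 alone. The strongest of its 11 pooled summits outside the IDR list was in an intron at rank 7483.

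Of the genes acting inside the growth cone, unc-34 (WBGene00006770, V, 982706 to 996914, plus strand) had no IDR summit in its window. It held 9 pooled summits, 8 in replicate 1 and 9 in replicate 2, and the strongest were at rank 10556, 6936 and 9198 in these lists, each beyond the strongest 6283. The nearest IDR summit was 5858 bp upstream, just past the window, at rank 2420 and nearest to the start of Y50D4C.12. A window of 10 kb upstream would therefore add unc-34 to the genes with a summit, which makes 7.

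A promoter summit of similar rank to that of unc-5 was found at unc-76 and unc-16. At unc-76 (WBGene00006808, V, 15071760 to 15080152, plus strand) it lay 305 bp upstream of the start (peak 15071296 to 15071666), at rank 686 with signal 433. Replicate 1 had signal 156 and rank 948 there, and replicate 2 had signal 285 and rank 548. The gene also had an IDR summit 7060 bp downstream of the start, ranked 2263. Its peak ranked 1634 in replicate 1 and 3117 in replicate 2. It lies in the 3′ UTR of 1 of 6 annotated transcripts and in an intron of the other 5, and 421 bp downstream of an internal annotated start of unc-76. Another summit, in an intron at 5171 bp, was close to the threshold at rank 6159 and was at rank 6956 in replicate 2, outside its strongest 6283. At unc-16 (WBGene00006755, III, 9546258 to 9557450, plus strand) the single IDR summit was 105 bp upstream of the start (peak 9546048 to 9546266), at rank 693 with signal 431. It had signal 169 and rank 808 in replicate 1 and signal 258 and rank 674 in replicate 2, with summits 3 bp and 0 bp away. A small non-coding RNA gene, ZK1098.13, is annotated at the same position. The plus-strand sequences around these summits (ce11, chrV:15071405-15071505 and chrIII:9546103-9546203) are given for comparison with the unc-5 promoter, with capitals as above.
unc-76 promoter: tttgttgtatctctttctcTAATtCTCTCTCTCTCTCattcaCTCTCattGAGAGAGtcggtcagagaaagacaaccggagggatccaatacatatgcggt
unc-16 promoter: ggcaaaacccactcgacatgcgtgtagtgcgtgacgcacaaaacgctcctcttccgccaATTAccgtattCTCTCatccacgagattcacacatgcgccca

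The words GAGAG, TAAT and CANNTG (the E-box) were each present within 50 bp of all 4 promoter summits of these genes, at unc-5, unc-40, unc-76 and unc-16, and at 36.7%, 49.3% and 43.8% of all promoter summits in the IDR list. Counting overlapping matches of GAGAG on both strands, unc-76 had 8, unc-5 had 2 and unc-16 had 1. Over all 16 IDR summits of the genes, 10 held GAGAG, or 62.5%, against 34.9% of all IDR summits and 36.7% of the 2429 IDR summits in promoter windows. The TAAT core was found at 12 of 16 (75.0%), against 57.1% of all IDR summits and 49.3% of those in promoter windows. The longer word TAATTA, which holds TAAT on both strands, was at none of the 16 and at 4.54% of all IDR summits. TAAT and ATTA spaced by 2 or by 3 bases, the arrangement bound by pairs of paired-type homeodomains, were at none of them and at 0.366% and 0.621% of all IDR summits. The E-box word CANNTG was at 6 of 16 (37.5%), against 45.9%. A median of 41.6% of bases in these windows were G or C, against 42.6% for all IDR summits. These counts describe letters in the windows, and binding to them was not tested.

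The most summits were found at unc-73 (WBGene00006805, chromosome I, 3999300 to 4031739, minus strand), with 7 IDR summits in 37440 bp. Among 45 genes with a window at least this long, 6 had as many IDR summits, unc-73 among them, and the median was 2.0. The strongest was in the first intron, 1030 bp downstream of the start (peak 4030511 to 4030906), at rank 1494 with signal 282. It had signal 102 and rank 1931 in replicate 1 and signal 199 and rank 1086 in replicate 2. The other 6 were at ranks 4240 to 6103. The summit 3878 bp upstream of unc-73 was 85 bp upstream of unc-89, the divergent neighbour, which encodes an obscurin-like protein of the muscle sarcomere. The summit at 26233 bp, in an intron of unc-73, was 71 bp downstream of the start of F55C7.2, a gene nested in unc-73 on the other strand. The remaining 4 were at 11903, 16506, 16720 and 24808 bp downstream of the start. The peaks of the pair at 16506 and 16720 bp overlap, and in each replicate the strongest peak overlapping each was the same for both. The summit at 11903 bp was 781 bp downstream of an internal annotated start of unc-73.

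Near the threshold, unc-73 also had the strongest pooled summit left outside the IDR list. This summit, 11037 bp downstream of the start, was at rank 6549 with signal 74.6, while the weakest IDR summit of these genes, at unc-76, was at rank 6159 with signal 80.1. Of its strongest 6283 peaks, replicate 1 placed 11 in the unc-73 window and replicate 2 placed 9. Among the latter, that ranked 6149 lay 359 bp before the start and so in the promoter window, where the IDR list has none and the pooled list has a peak at rank 6723.

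Taken by position, 4 of the 10 genes had an IDR summit in the promoter window, and the share over all protein-coding genes was 14.7%. The promoter summits of unc-5, unc-76 and unc-16 were at ranks 641, 686 and 693, and 13.9% of all promoter summits in the IDR list were at rank 693 or better. Their replicate summits were within 17 bp of the pooled ones in replicate 1 and within 26 bp in replicate 2. The other 12 summits lay outside promoter windows at ranks 1494 to 6159. Of all 16, 6 were in the upper 3141 ranks, and 9 had the member's outermost start as the nearest of the outermost starts of all protein-coding genes. With every annotated transcript start of these genes counted, the nearest start was the member's own at 13 of the 16, internal starts of unc-73 and unc-76 making up the difference. Each of the 16 overlapped a peak in both replicate lists. In replicate 1 these peaks were among the strongest 6283 for all 16, and in replicate 2 for 14, the exceptions being the summit of unc-73 at 24808 bp (rank 7528) and that of unc-76 at 5171 bp (rank 6956). The IDR list was built from the same replicates, so this is not independent support.

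**Figure D3:**
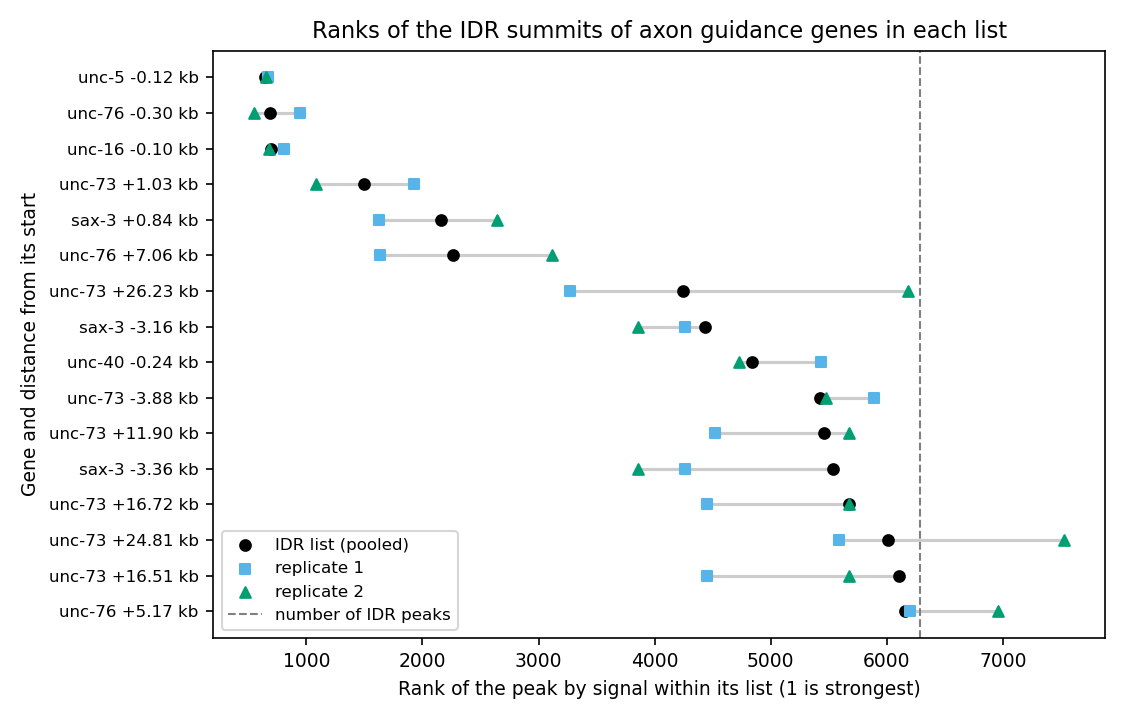
Rank by signal (x axis, 1 is strongest) of each of the 16 IDR summits, named by gene and distance from its start (y axis), in the IDR list and of the overlapping peak in each replicate; the dashed line marks 6283, the number of IDR peaks. The promoter summits of unc-5, unc-76 and unc-16 are at ranks 548 to 948 in each list, and 2 replicate 2 peaks, of unc-73 and unc-76, are beyond the line.

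Other genes of axon guidance were described by 3 lists, each chosen by function. Over all protein-coding genes, 32.9% had an IDR summit in the gene or 5 kb upstream and 14.7% in the promoter window. Among the 7666 genes with windows of 7572 to 37675 bp, 42.8% had an IDR summit. Of 24 further ligands, receptors and matrix genes, 13 had an IDR summit in the gene or 5 kb upstream (54.2%) and 3 in the promoter window (12.5%). The strongest in this list were at the plexin gene plx-1 (1545 bp upstream, rank 923), in an intron of the ephrin gene vab-2 (910 bp downstream of the start, rank 1617) and 4349 bp upstream of the collagen XVIII gene cle-1 (rank 1668), the last in the promoter windows of pas-4 and rpb-3. Ligand genes of this list did have IDR summits, unlike the ligand genes unc-6, slt-1 and unc-129. Among ephrin and semaphorin genes, vab-2 had 3, smp-2 had 2, and efn-2, smp-1 and mab-20 had 1 each. The ephrin genes efn-3 and efn-4 had 0. Among their receptor genes, plx-1 had 2, and vab-1 and plx-2 had 0. Of 22 cytoplasmic and cytoskeletal effectors, 13 had a summit (59.1%) and 7 in the promoter window (31.8%). They were led by wve-1, the WAVE actin regulator (627 bp upstream, rank 175, shared with R06C1.4), srgp-1, a Slit-Robo GTPase activating protein (4141 bp upstream, rank 407, in the promoter window of sec-24.1), and the ankyrin gene unc-44 (1478 bp upstream, rank 731). This list includes unc-119, which is mutated in the strain. It had 3 IDR summits, the best at rank 1147, and whether the strain's genotype affects peaks there was not tested.

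Of 11 genes listed as partners of unc-16 and unc-76 in transport and axon bundling, 9 had a summit (81.8%) and 4 in the promoter window (36.4%). Over all protein-coding genes these shares were 32.9% and 14.7%. The strongest were at the kinesin light chain gene klc-1 (641 bp upstream, rank 465, shared with let-70), in an intron of the kinase gene jkk-1 (2308 bp downstream of the start, rank 1443, also in an intron of F35C8.8) and at the kinase gene unc-51 (1417 bp upstream, rank 1457). The best summit of unc-116 was at rank 2635. Those of unc-14, unc-69, jnk-1 and dhc-1 were at ranks 3269 to 3722 and that of unc-104 at rank 6281, all outside the upper 3141. The median window lengths of the 3 lists were 12287, 14882 and 10633 bp, longer than the 7027 bp of all genes. In IDR summits per length the lists had 0.556, 1.00 and 1.01 per 10 kb, in the same order, against 0.629 over all protein-coding genes. The first list was thus below the level of all genes per length and above it by gene count.

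**Figure D4:**
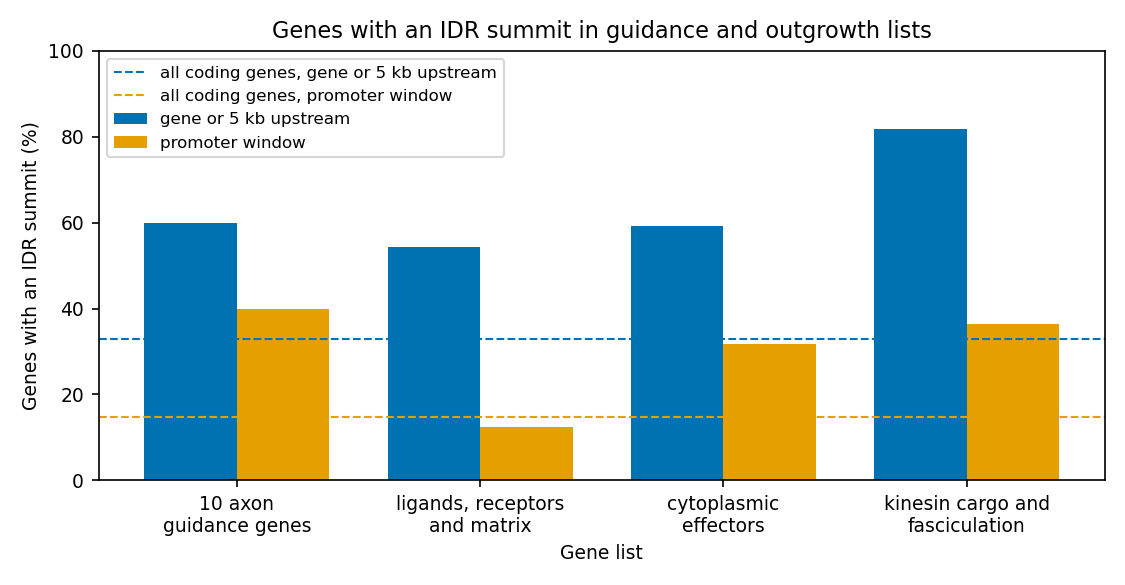
Percentage of genes with an IDR summit (y axis) in the gene or 5 kb upstream (blue) and in the promoter window (orange) for the 10 genes and the 3 further lists (x axis). Dashed lines are the shares over all protein-coding genes, 32.9% and 14.7%, whose windows are shorter; the promoter bar of ligands, receptors and matrix genes, at 12.5%, is below its line.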

How the data were processed

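The authors deposited narrowPeak lists on ce11 and ce10 for each replicate, the pooled replicates and the IDR-thresholded set. Each deposited list gives a signal value per peak from the authors' peak caller, with no scale stated. The names of the aligner and peak caller and the IDR cutoff were not given in the sources used here. Replicate and pooled lists include background, per the deposited file descriptions. The ce10 lists were not used.

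Summits (start plus summit offset, 1-based) were assigned to protein-coding genes of Ensembl release 115 for WBcel235, the assembly of ce11, and sequence came from the RefSeq copy of that assembly. A summit counted for a gene when inside it or within 5 kb upstream of its outermost start. A replicate peak matched an IDR peak at an overlap of at least 1 bp, and the strongest was taken. Words were looked for within 50 bp of summits, on either strand. Analyses used Python 3.11.15, NumPy 2.4.6, SciPy 1.17.1 and Matplotlib 3.10.9. Assignment was tested on planted summits.

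All 10 genes and each of their IDR summits are named. The further lists name the 3 genes with the strongest summits. The genes and lists were chosen with earlier results of these data known. Genes with windows of 7572 to 37675 bp and the peaks missing from the pooled list were examined after values were seen. No significance test was made, since members and lists are not replicates. Alternatives are in the closing section.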

Additional observations from a re-analysis of the deposited data

How the results depend on the processing

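The 6 genes with an IDR summit became 5 to 8 and the 4 with a promoter summit 3 to 5 under the alternatives tried. The 16 IDR summits became 6 (0.310 per 10 kb, against 0.826) with the stronger 50% of IDR peaks, where unc-40 had none. They became 9 (0.465 per 10 kb) when a summit counted only if the member had the nearest outermost gene start, and 13 (0.671 per 10 kb, in 6 genes) with every annotated transcript start. All pooled peaks gave 114 (5.89 per 10 kb), and leaving out unc-73 gave 9 (0.576 per 10 kb). Merging overlapping peaks gave 14 regions. With the strongest 6283 peaks of 1 replicate alone, summits ranged from 17 to 20 and their density from 0.878 to 1.03 per 10 kb. Both replicates gave 7 genes, with unc-129 added, and 4 to 5 with a promoter summit, replicate 2 adding unc-73. The alternatives with all pooled peaks, merged peaks, every annotated start and without unc-73 were chosen after seeing the data. The number of reads is unknown, so the absence of a summit means only that none was listed.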

Other observations

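Of the 22 cytoplasmic and cytoskeletal effector genes, 7 had 3 or more IDR summits in the gene or 5 kb upstream, and 9 had none. Over all protein-coding genes 4.24% had at least 3. At least 1 was present in 59.1% of this list and 32.9% of all protein-coding genes, so having none was less frequent in the list. The 7 include unc-119, which is mutated in the strain. The genes below were named after their values were seen. The lamellipodin homologue gene mig-10 had 6 in 31737 bp, the best at rank 2306, and 0.360% of all protein-coding genes had as many. The neuron navigator gene unc-53 had 5 in 36410 bp and srgp-1 had 5 in 13200 bp, as 0.726% of genes did. The CRMP-type gene unc-33, which acts on axonal microtubules, had 4 in 14717 bp (1.77% of genes). The Rac-type GTPase gene mig-2 had 3 in 7085 bp, 2 of them in the promoter window (4.24% of genes had at least 3), and ced-10, another Rac gene, had 0 in 8200 bp. Some long windows were empty, with 0 summits at max-1 in 26318 bp, at sax-2 in 25976 bp, at tiam-1 in 21500 bp and at rpm-1 in 19557 bp. Among the 7666 genes with windows of 7572 to 37675 bp, 42.8% had an IDR summit. The share among only the windows as long as these empty ones was not computed. The shares over all protein-coding genes are not matched for window length.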
